A study of Homo sapiens with 3 samples.

Results

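ChIP-seq, the sequencing of DNA recovered by chromatin immunoprecipitation, was examined at 10 genes that are known outputs of ERK signalling, most of which also restrain it. The genes were the dual-specificity phosphatases DUSP4, DUSP5 and DUSP6, the Sprouty and Spred inhibitors SPRY2, SPRY4, SPRED1 and SPRED2, the ETS transcription factors ETV4 and ETV5, and PHLDA1. They were chosen by name, and all 10 were found among the 20163 protein-coding genes of the annotation. Peaks were assigned to a gene when they lay over it or within 50 kb of either end, a region called the window here. The cells were untreated H2087, an established cell line of human lung adenocarcinoma. Histone H3 acetylated at lysine 27 (H3K27ac) and histone H3 trimethylated at lysine 4 (H3K4me3) were each measured in 1 library, and an input library without antibody was not analysed here. No value had a replicate, so no difference between the marks or between the genes was tested, and intervals cover counting error only.

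ERK is the last kinase of the cascade from RAS through RAF and MEK. Active ERK changes the transcription of a small group of genes, and many of their products switch the pathway off again. The phosphatases remove phosphate from ERK, whereas Sprouty and Spred proteins act further up, at the level of receptors, RAS and RAF. ETV4 and ETV5 carry the signal into transcription, and their genes are held down by the repressor CIC until ERK signalling relieves it. Because these genes follow pathway activity, their transcript levels are often used as a readout of it. H3K4me3 mainly marks promoters, while H3K27ac marks promoters and enhancers that are in use. Neither mark measures transcript levels.

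The H3K27ac list held 24096 peaks and the H3K4me3 list 18585, each with a −log10 q from the peak caller that ranks peaks within its own list. The median −log10 q was 2.65 and 2.97, respectively. Read counts were not part of these lists, so depth is unknown, and the absence of a peak cannot be told apart from too few reads. Gene starts were checked against marker genes of the labelled cell type. Of 6 epithelial markers, all 6 had an H3K4me3 peak within 1 kb of the start and 5 had an H3K27ac peak. Of 3 lung lineage markers, NKX2-1 carried both marks, and NAPSA and SFTPB carried neither there. None of 3 squamous, 3 neuroendocrine and 2 blood markers had a peak of either mark at the start, nor did CDH5 of the endothelial markers, while PECAM1 was not found.

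The following sequences are the reference bases under peaks that recur in the results below. They were read from hg19 in the direction of transcription of the gene, with every CG dinucleotide in capitals. They are chosen examples, and only the SPRED2 sequence lies further than 3 kb from every transcript start of its gene. The SPRY4 sequence is centred 483 bp upstream of the canonical start. The DUSP5 sequence (chr10:112257176-112257399, plus strand) is the H3K4me3 peak nearest to its start. The SPRED1 sequence (chr15:38544864-38545036, plus strand) is the stretch of its H3K27ac peak that lies before the start. The SPRY4 sequence (chr5:141704941-141705198, minus strand) is the H3K27ac peak with the highest value near any of the 10 genes. The SPRED2 sequence (chr2:65611669-65611917, minus strand) is an H3K27ac peak inside an intron.
DUSP5 promoter: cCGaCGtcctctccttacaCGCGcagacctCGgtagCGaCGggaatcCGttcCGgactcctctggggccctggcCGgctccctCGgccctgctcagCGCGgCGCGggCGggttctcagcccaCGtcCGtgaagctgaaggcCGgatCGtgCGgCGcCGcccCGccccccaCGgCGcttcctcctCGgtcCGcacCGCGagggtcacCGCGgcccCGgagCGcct
SPRED1 promoter: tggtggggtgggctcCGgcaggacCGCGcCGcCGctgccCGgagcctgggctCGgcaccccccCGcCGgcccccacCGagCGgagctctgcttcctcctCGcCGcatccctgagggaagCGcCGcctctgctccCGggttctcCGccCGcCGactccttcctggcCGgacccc
SPRY4 intron: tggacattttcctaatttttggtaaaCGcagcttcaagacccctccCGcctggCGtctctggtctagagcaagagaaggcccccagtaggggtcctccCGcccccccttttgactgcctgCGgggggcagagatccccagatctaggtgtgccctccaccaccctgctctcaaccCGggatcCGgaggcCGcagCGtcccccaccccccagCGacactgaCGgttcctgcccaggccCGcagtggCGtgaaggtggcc
SPRED2 intron: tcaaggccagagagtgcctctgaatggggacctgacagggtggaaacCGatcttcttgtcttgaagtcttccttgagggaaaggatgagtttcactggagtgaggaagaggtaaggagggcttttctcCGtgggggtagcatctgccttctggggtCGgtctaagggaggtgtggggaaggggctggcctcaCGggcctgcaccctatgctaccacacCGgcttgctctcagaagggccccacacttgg
The DUSP5 stretch held 34 CG dinucleotides in 224 bases and the SPRED1 stretch 20 in 173. The SPRY4 peak held 13 in 258 bases and the SPRED2 peak 5 in 249.

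Most of the 10 genes carried at least 1 of the marks at the start, and DUSP4 carried neither anywhere in its window. Within 1 kb of the outer gene start, the most upstream annotated end of the gene, an H3K27ac peak was present at 6 of 10 genes (DUSP6, PHLDA1, SPRED1, SPRED2, SPRY2 and SPRY4), compared with 23.6% of all protein-coding genes. An H3K4me3 peak was present at 6 of 10 (DUSP5, DUSP6, PHLDA1, SPRED1, SPRED2 and SPRY4), compared with 38.2%. Both marks were found at 5 of 10, compared with 18.6%, and neither at 3 of 10 (DUSP4, ETV4 and ETV5), compared with 56.8%. The outer start is not always the start of the main transcript. It differed from the start of the canonical transcript by 33.3 kb at ETV4, 1434 bp at SPRY4, 1229 bp at ETV5 and 38 bp at SPRED2, and not at all at the other genes. At the canonical start, H3K27ac was present at 7 of 10 genes (25.2% of all genes), H3K4me3 at 8 of 10 (41.2%), both marks at 6 of 10 (20.3%) and neither at 1 of 10 (53.9%). Within 3 kb of the outer start, both marks were found at 8 of 10 genes, compared with 24.3% of all genes. The genes that changed class at the canonical start were ETV5, which gained both marks, and ETV4, which gained H3K4me3.

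**Figure D1:**
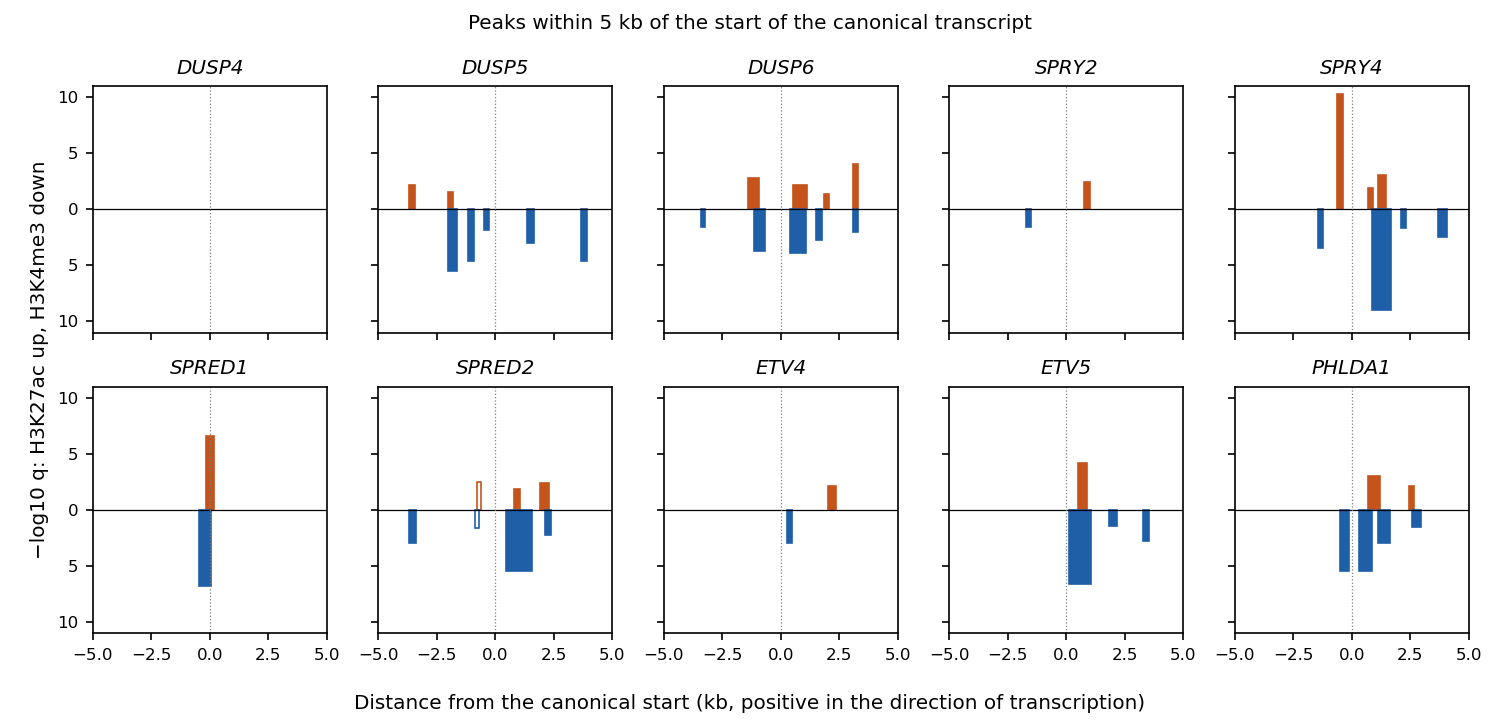
Peaks with centres within 5 kb of the start of the canonical transcript of each gene, with the distance in kb on the x axis and the −log10 q of the peak as bar height on the y axis (H3K27ac upward, H3K4me3 downward, bar width equal to peak width, open bars for sequence present many times in the genome). DUSP4 has no bar, DUSP5 has H3K4me3 on both sides of the start with 2 H3K27ac bars upstream, and SPRY4 has the tallest bars of both marks, at 10.3 and 9.0.

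The dual-specificity phosphatases differed from each other in the pattern of their peaks. DUSP6, the cytoplasmic phosphatase that acts mainly on ERK, lies at chr12:89741012-89746278 on the minus strand. Its window contained 6 H3K27ac and 6 H3K4me3 peaks, and 4 of each overlapped a peak of the other mark. Around the start, H3K27ac peaks were centred 1.17 kb upstream (−log10 q 2.82) and 823 bp downstream over exon 1 (2.16), with further peaks over exon 2 (1.39) and exon 3 (4.0). H3K4me3 peaks were centred 911 bp upstream (3.76) and 738 bp downstream (3.87). The marks thus covered the same places on each side of the start, with no peak over the start itself, and the nearest edges were 535 bp from it for H3K27ac and 404 bp for H3K4me3. The highest H3K27ac value at DUSP6 was 5.17, at a site 22.3 kb upstream of the start in an intron of the long noncoding RNA gene ENSG00000286608. The H3K4me3 peak there had a value of 2.47. Both peaks lay mostly in multi-copy sequence, as defined further on.

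DUSP5, a nuclear phosphatase that binds ERK, lies at chr10:112257665-112271291 on the plus strand. It had 6 H3K4me3 peaks, 3 of them over the gene, and 7 H3K27ac peaks, none over the gene. The H3K4me3 peaks formed a row from 1.85 kb upstream to 5.90 kb downstream of the start, with values of 5.47, 4.60, 1.88, 2.97, 4.60 and 2.29 in that order. The lowest of these was the one nearest to the start, 266 bp before it, which is the DUSP5 sequence shown above. H3K27ac came no closer than 1.80 kb. The peak at that distance (chr10:112255629-112255861, 1.55) overlapped the outermost H3K4me3 peak in the divergent noncoding gene DUSP5-DT, and was the only place near DUSP5 with both marks. The highest H3K27ac value was 2.82, at an intergenic peak 19.7 kb past the start, and 1 of the 7 H3K27ac peaks was at or above the median of its list, compared with 4 of 6 H3K4me3 peaks.

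DUSP4, a nuclear phosphatase of ERK and other MAP kinases, lies at chr8:29190581-29208201 on the minus strand. No peak of either mark was listed in its window. Across all protein-coding genes, a window held at least 1 H3K27ac peak in 63.9% and at least 1 H3K4me3 peak in 70.2%, and 9 of the 10 genes described here had both. The nearest H3K27ac peak was 648.8 kb from the start and the nearest H3K4me3 peak 732.0 kb. DUSP4 shared this with its surroundings. Of the 31 other protein-coding starts within 2 Mb, 0 had an H3K27ac peak within 1 kb, a count that allows a share of up to 9.68% by the limit of 3 counts and 11.2% by the exact 95% interval, and 1 had an H3K4me3 peak (3.23%, exact 95% interval 0.0816 to 16.7). Within 2 Mb there were 4 H3K27ac peaks and 1 H3K4me3 peak. At the other 9 genes the same distance held 2 to 140 H3K27ac peaks (median 43) and 3 to 101 H3K4me3 peaks (median 24), with SPRY2 at the low end of both. Copy number was not measured, and its part in this result was not tested.

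**Figure D2:**
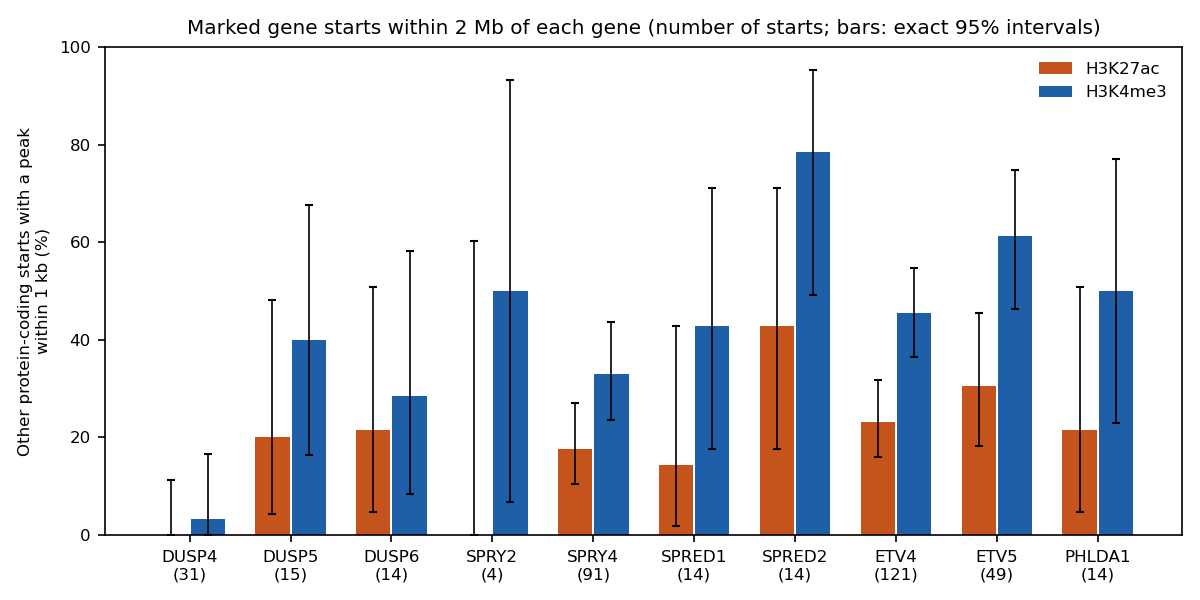
Share of the other protein-coding gene starts within 2 Mb of each gene that had a peak within 1 kb, in percent on the y axis, for H3K27ac and H3K4me3 (bars) with exact 95% intervals (lines) and the number of starts in parentheses on the x axis. The bars of DUSP4 are at 0 and 3.23%, while those of SPRED2 are at 42.9% and 78.6%.

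The surroundings also differed among the genes that carried peaks. H3K27ac marked 6 of 14 neighbouring starts at SPRED2 (42.9%), 15 of 49 at ETV5 (30.6%) and 28 of 121 at ETV4 (23.1%). It marked 0 of 4 at SPRY2, a count that allows a share of up to 75% by the limit of 3 counts and 60.2% by the exact interval. The H3K4me3 share was higher than the H3K27ac share around each of the 10 genes, from 3.23% at DUSP4 to 78.6% at SPRED2. Its list marked more starts over the whole genome as well.

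Of the pair of Sprouty genes among the 10, SPRY4 had more peaks and higher values than SPRY2. SPRY4, an inhibitor of receptor tyrosine kinase signalling, lies at chr5:141689992-141706020 on the minus strand. Its window had 10 H3K27ac and 5 H3K4me3 peaks. The H3K27ac peak at chr5:141704941-141705198 had a −log10 q of 10.3, and 0.315% of the H3K27ac list was at or above that value. It was 258 bp wide, was centred 483 bp upstream of the canonical start, and lay in an intron of longer SPRY4 transcripts and of the antisense gene SPRY4-AS1. No H3K4me3 peak overlapped it. The highest H3K4me3 value near any of the genes, 9.0, was also at SPRY4. That peak (chr5:141702902-141703709, 808 bp) was centred 1281 bp downstream of the canonical start, and 1.97% of the H3K4me3 list was at or above its value. It overlapped 2 H3K27ac peaks with values of 3.04 and 1.89. The site of the strongest acetylation and that of the strongest trimethylation at SPRY4 were therefore different places on opposite sides of the canonical start. A further H3K4me3 peak (3.44) covered the outer start.

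Upstream of SPRY4, 6 H3K27ac peaks were grouped within 9.42 kb, centred 29.6 to 38.3 kb before the outer start in introns of SPRY4-AS1. Their −log10 q values were 5.52, 3.32, 3.52, 3.66, 5.12 and 2.1 with increasing distance, and together they covered 2427 bp. An H3K4me3 peak was present at 1 of the 6, with a value of 1.55. The nearest protein-coding start to each of these peaks was that of SPRY4. The peak with the value of 5.12 was the only one of the 6 that lay mostly in multi-copy sequence.

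SPRY2, the other Sprouty gene, lies at chr13:80910111-80915261 on the minus strand. It had a single peak of each mark in its window. The H3K27ac peak (2.45) was centred 870 bp downstream of the start in an intron, and the H3K4me3 peak (1.55) 1627 bp upstream in intergenic sequence. They did not overlap, and both values were below the medians of their lists. SPRY2 was the only one of the 10 genes with an H3K27ac peak and no H3K4me3 peak within 1 kb of the canonical start.

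The Spred genes, whose products hold RAS in check together with neurofibromin, contrasted in the number of peaks. SPRED1 lies at chr15:38545037-38649450 on the plus strand and had 2 H3K27ac peaks and 1 H3K4me3 peak in a window of 204.4 kb. The H3K27ac peak at chr15:38544864-38545231 covered the start and exon 1 with a value of 6.60, and the H3K4me3 peak at chr15:38544590-38545072 covered the start with a value of 6.74. These values were reached by 2.84% of the H3K27ac and 6.32% of the H3K4me3 list. SPRED1 was the only one of the 10 genes at which both marks covered the outer start itself. The remaining H3K27ac peak (2.22) was 36.6 kb upstream, in an intron of the noncoding gene LINC02895.

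SPRED2 lies at chr2:65537985-65659771 on the minus strand and had the most peaks of the 10 genes, with 18 of H3K27ac and 8 of H3K4me3 in 221.8 kb. Of the H3K27ac peaks, 13 lay over the gene, and 11 of these were 48.0 to 115.3 kb into it. The highest value was 7.38, at the intronic peak shown above, 48.0 kb into the gene and without H3K4me3. Near the start the values were lower. H3K27ac peaks were centred 661 bp upstream (2.47), 973 bp downstream (1.89) and 2.14 kb downstream (2.45) of the outer start. H3K4me3 showed its widest peak of all 10 genes there (chr2:65658177-65659286, 1110 bp, −log10 q 5.41), with 2 summits. A second place with both marks lay 111 to 113 kb into the gene, where H3K27ac peaks of 2.1 and 2.92 overlapped H3K4me3 peaks of 2.20 and 5.25. That end of the window was shared with ACTR2, a gene of the ARP2/3 complex, whose start was nearer than that of SPRED2 for 7 of the 18 H3K27ac and 2 of the 8 H3K4me3 peaks.

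At both ETS factor genes, the peaks nearest to the outer start lay inside the gene. ETV5 lies at chr3:185764103-185828107 on the minus strand. An H3K4me3 peak of 934 bp with 2 summits (chr3:185825811-185826744, −log10 q 6.58) began 134 bp downstream of the canonical start, and the single H3K27ac peak of the window (chr3:185825984-185826368, 4.25) lay within it. Another 2 H3K4me3 peaks followed at 1.99 and 3.41 kb downstream, with values of 1.41 and 2.75. No H3K27ac peak was listed elsewhere within 50 kb of ETV5. The 4 peaks also lay within the annotated span of the overlapping gene DGKG. The nearest protein-coding start to each was that of ETV5, but nearness does not show which gene a peak acts on.

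ETV4 lies at chr17:41605212-41656988 on the minus strand, in a gene-dense region with 121 other protein-coding starts within 2 Mb. The nearest peaks to its outer start were 35.3 kb (H3K27ac) and 33.5 kb (H3K4me3) away. The H3K4me3 peak (chr17:41623241-41623448, 2.97) was 260 bp from the canonical start. H3K27ac was present at 3 places in the gene, 2.18, 10.4 and 16.2 kb downstream of the canonical start, with values of 2.16, 2.05 and 2.16, all below the median of the list. The marks did not overlap anywhere in the window. Another H3K4me3 peak (chr17:41561745-41561923, 1.42) lay beyond the end of ETV4, 61.9 kb downstream of the canonical start in an intron of DHX8. The other 4 peaks lay within the annotated spans of both ETV4 and DHX8, and such an overlap does not show which gene a peak acts on. The H3K4me3 peak among them covered the start of an ETV4 transcript. The start of DHX8 was nearer than that of ETV4 for the peak beyond the gene and for the H3K27ac peak at 16.2 kb.

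PHLDA1, which encodes a pleckstrin homology-like domain protein whose transcript rises with ERK activity, lies at chr12:76419227-76425556 on the minus strand. H3K4me3 peaks were centred 303 bp upstream and 591, 1389 and 2780 bp downstream of the start, with values of 5.42, 5.41, 2.93 and 1.55. H3K27ac peaks were centred 956 and 2547 bp downstream, with values of 3.05 and 2.16, over exons 1 and 2. Upstream of PHLDA1 only H3K4me3 was listed near the start. The highest H3K27ac values of the gene were distal. A group of 5 peaks lay 47.6 to 56.4 kb past the start, beyond the end of the gene, and had values of 3.40, 5.17, 4.32, 1.96 and 7.83 with increasing distance. The last of these (chr12:76368871-76369365) crossed the edge of the window, overlapped an H3K4me3 peak that lay outside it, and was reached by 1.22% of the H3K27ac list. Of the 5, 4 lay in introns of the noncoding gene ENSG00000258077 and 2, those of 3.40 and 1.96, lay mostly in multi-copy sequence. The peaks of 7.83 and 5.17 fell below the 50% limit for multi-copy sequence given further on, with 47.9% and 30.1% recurring words. Both still held words with at least 1000 copies in the assembly. In the peak of 4.32 the share of recurring words was 0%.

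**Figure D3:**
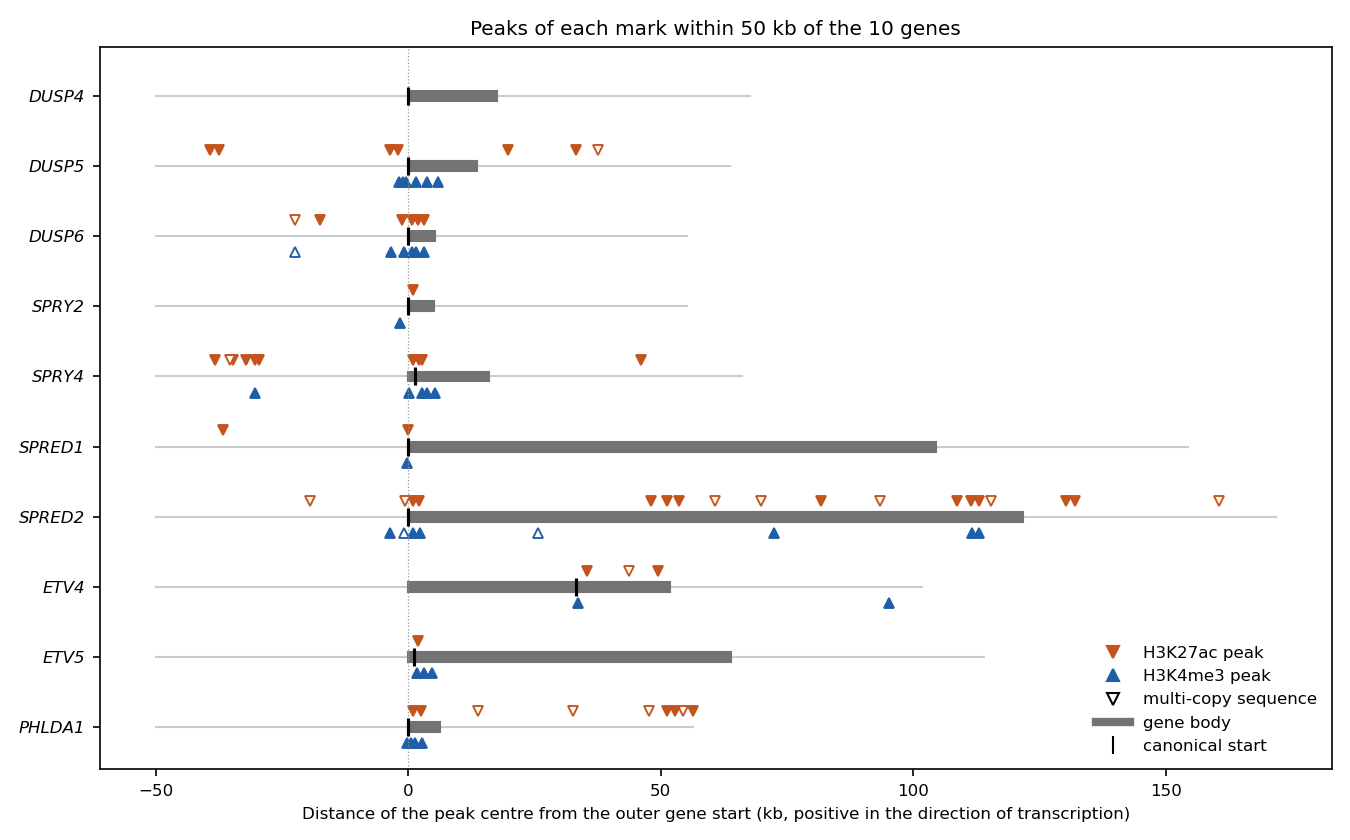
Positions of all peaks of H3K27ac (triangles above each line) and H3K4me3 (triangles below) in the windows of the 10 genes, by distance in kb of the peak centre from the outer gene start, with gene bodies in grey, canonical starts as black ticks and open triangles for multi-copy sequence. H3K4me3 gathers at the starts, whereas H3K27ac also forms groups 29.6 to 38.3 kb upstream of SPRY4 and 47.6 to 56.4 kb downstream of the PHLDA1 start and is spread along SPRED2.

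Over all 10 windows there were 57 H3K27ac and 36 H3K4me3 peaks. H3K4me3 was the mark closer to the starts. Of its peaks, 27 of 36 lay within 3 kb of a transcript start of the gene (75%), compared with 19 of 57 H3K27ac peaks (33.3%). Over the windows of all protein-coding genes, where a peak counts once for each window that holds it, the shares were 30.8% for H3K4me3 and 21.3% for H3K27ac. By the annotation of all genes, noncoding ones included, H3K27ac peaks fell in introns in 34 cases, in intergenic sequence in 11 and over exons in 12. The numbers for H3K4me3 were 15, 6 and 15. Many of the introns belonged to neighbouring noncoding genes, and 27 of the 57 H3K27ac and 24 of the 36 H3K4me3 peaks lay over the gene itself. These classes were not counted over all windows. At distances over 3 kb from every transcript start, 38 H3K27ac and 9 H3K4me3 peaks remained.

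The marks overlapped mainly near the canonical starts. Of the H3K27ac peaks of the 10 genes, 18 of 57 overlapped an H3K4me3 peak by 1 bp or more (31.6%, exact 95% interval 19.9 to 45.2), and over the whole list the share was 24%. Of the H3K4me3 peaks, 17 of 36 overlapped an H3K27ac peak (47.2%, 30.4 to 64.5), and over the whole list 31.1%. Within 3 kb of the canonical start, 12 of 16 H3K27ac peaks were in such an overlap (75%), and further away 6 of 41 (14.6%). Over the windows of all protein-coding genes, the shares were 52.6% and 27%. Peaks of 1 window are neighbours and not independent, and the intervals treat them as independent.

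Peak density, given per 100 kb of window because the genes differ in length, was above the median of all protein-coding genes at 8 of the 10 genes for H3K27ac and at 7 for H3K4me3. The median over the 10 genes was 3.84 H3K27ac peaks per 100 kb, compared with 0.887 over all protein-coding genes (middle 50% of genes 0 to 3.0). For H3K4me3 it was 2.72, compared with 0.989 (0 to 2.83). In order of H3K27ac density, SPRY4 (8.62), PHLDA1 (8.46) and SPRED2 (8.12) stood at percentiles 93.8, 93.6 and 93.1 of all genes. DUSP5 (6.16) and DUSP6 (5.70) followed. A wide gap separated these 5 genes from ETV4 (1.98), SPRED1 (0.978), SPRY2 (0.951), ETV5 (0.610) and DUSP4 (0). This grouping depends on peaks of low value. With only peaks at or above the list median, 4 of the 10 genes were above the middle 50% of all genes in H3K27ac, compared with 5 with all peaks. At DUSP5 only 1 H3K27ac peak was at or above the list median. In H3K4me3 density DUSP6 (5.70) and DUSP5 (5.28) came before SPRY4 (4.31), PHLDA1 (3.76) and SPRED2 (3.61). The same 5 genes thus held the upper places in both marks, with the phosphatases ahead in H3K4me3 and SPRY4, PHLDA1 and SPRED2 ahead in H3K27ac. SPRED2 and PHLDA1 held the most H3K27ac peaks in multi-copy sequence, and the order was not recounted without such peaks. ETV5 was higher in H3K4me3 (1.83) than in H3K27ac. With 1 library per mark, the differences between neighbours in these orders were not tested.

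**Figure D4:**
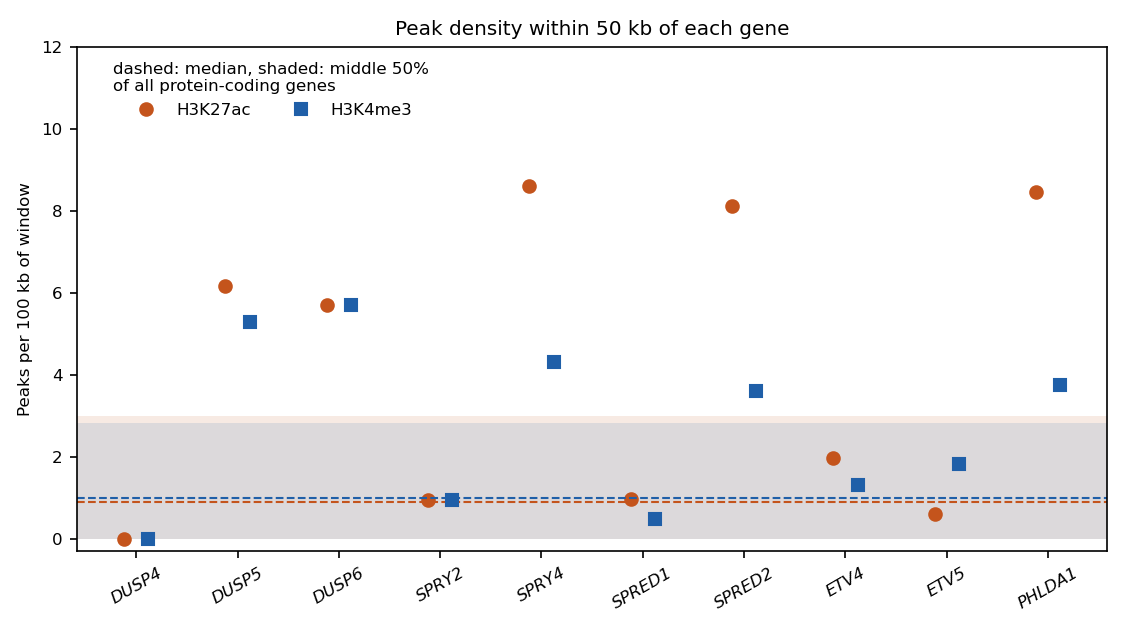
Number of H3K27ac (circles) and H3K4me3 (squares) peaks per 100 kb of window on the y axis for each gene on the x axis, with the median (dashed lines) and middle 50% (shading) of all protein-coding genes for each mark. SPRY4, PHLDA1, SPRED2, DUSP5 and DUSP6 lie above the shading in both marks, and DUSP4 lies at 0.

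The individual peaks were of ordinary strength in their lists. The median −log10 q over the 57 H3K27ac peaks was 2.45 (range 1.39 to 10.3), and 26 of them (45.6%) were at or above the list median. Over the 36 H3K4me3 peaks it was 2.95 (range 1.41 to 9.0), with 18 (50%) at or above the list median. The median H3K27ac value was 2.45 within 3 kb of a transcript start and 2.52 further away. For H3K4me3 it was 2.97 near the starts and 2.47 further away. Of the H3K27ac peaks, 7 of 10 at SPRY4, 7 of 18 at SPRED2, 5 of 9 at PHLDA1 and 4 of 6 at DUSP6 were at or above the list median. Median widths were 266 bp for H3K27ac (range 189 to 846) and 285.5 bp for H3K4me3 (range 179 to 1110), compared with 284 and 305 bp in the whole lists.

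**Figure D5:**
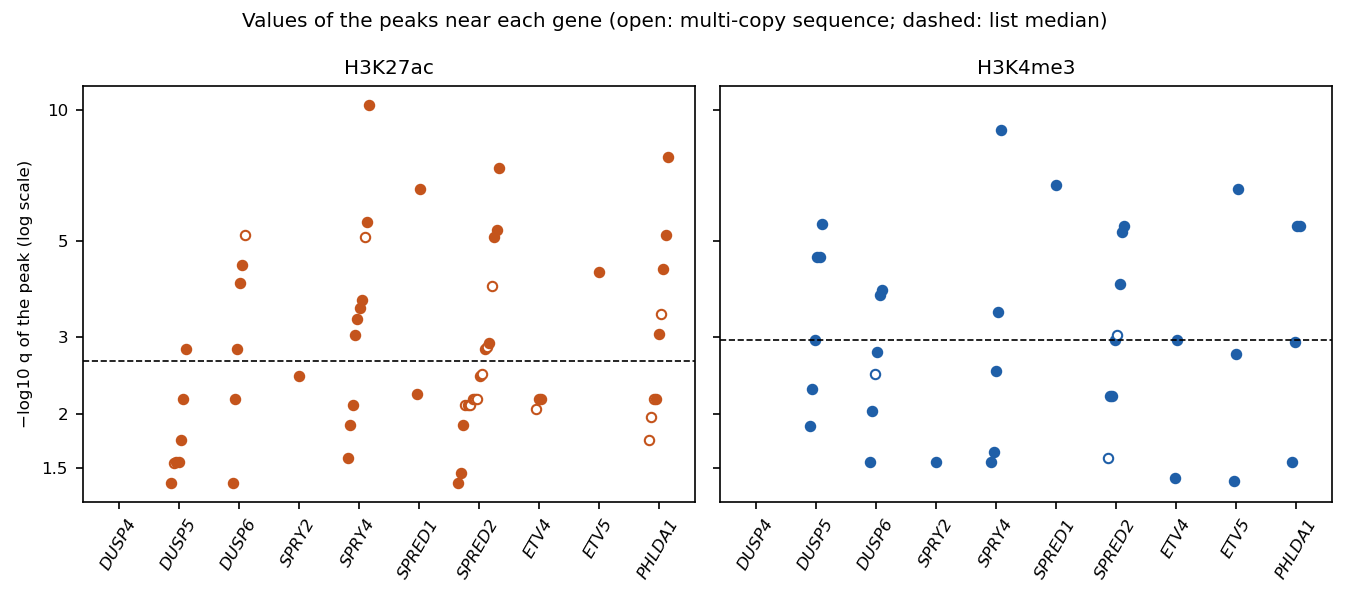
The −log10 q of each H3K27ac peak (left) and H3K4me3 peak (right) in the window of each gene, on a log y axis, with the list median as a dashed line and open circles for multi-copy sequence. The H3K27ac points reach 10.3 at SPRY4, and 6 genes have H3K27ac points on both sides of the list median.

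Sequence that occurs many times in the genome lay mainly under distal H3K27ac peaks. Peaks were counted as multi-copy if more than 50% of the 24-base words in them recurred in the assembly. This was so for 15 of 57 H3K27ac peaks (26.3%; 19.3% of the whole list) and 3 of 36 H3K4me3 peaks (8.33%; 14.2% of the whole list). Further than 3 kb from every transcript start of the gene, 14 of 38 H3K27ac peaks were multi-copy, and within 3 kb 1 of 19. A word with at least 1000 copies was present in 21 of 57 H3K27ac peaks (36.8%; 25.8% of the whole list). For H3K4me3 it was 4 of 36 (11.1%; 16.8% of the whole list). Of the 38 H3K27ac peaks further than 3 kb, 20 held such a word (52.6%). The split by distance was not made for the whole list. SPRED2 held both multi-copy peaks near its start, 1 of each mark, in the same place upstream. Without multi-copy peaks, 42 H3K27ac and 33 H3K4me3 peaks remained, and the numbers of genes marked at the outer start were 6 for H3K27ac, 6 for H3K4me3 and 5 for both.

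CG content was higher in the median near the starts, with wide overlap. In the 300 bases around the centre of H3K27ac peaks, the median number of CG dinucleotides was 13 within 3 kb of a start (range 2 to 39) and 5.5 further away (range 1 to 35). Over all 57 H3K27ac peaks the median was 6, compared with 7 in the whole list. Over the 36 H3K4me3 peaks it was 10, compared with 13 in the whole list. The canonical promoters of the 10 genes, from 250 bases before to 50 after the start, had a median of 28, compared with 23 over all protein-coding genes. The octamer TGAATGAA, recognised by CIC, was searched on both strands in this exact form only. It was found in 1 of the 10 canonical promoters, that of ETV4, and in 1.27% of all canonical promoters. Over their whole width, 1 of 57 H3K27ac peaks (1.75%; 1.21% of the list) and 2 of 36 H3K4me3 peaks (5.56%; 1.22% of the list) held it. These 4 occurrences are shown because CIC is the repressor known for ETV4 and ETV5, as 30 bases of hg19 on the strand that reads TGAATGAA, with the octamer in capitals. The ETV4 occurrence (chr17:41623917-41623946, minus strand) lies 220 bp upstream of the canonical start, outside the H3K4me3 peak. The others lie in the wide H3K4me3 peak of ETV5 (chr3:185825830-185825859, minus strand), in that of SPRED2 (chr2:65658583-65658612, plus strand) and in the furthest H3K27ac peak of the group upstream of SPRY4 (chr5:141744362-141744391, plus strand).
ETV4: agccggagcacTGAATGAAgccgggagcca
ETV5: gggtgactttaTGAATGAAgcgggtttctt
SPRED2: cgtgttttttaTGAATGAAaatgtggtatg
SPRY4: acgtttcacagTGAATGAAggaactggggc
A match describes the letters only, and CIC binding was not measured. The AP-1 site TGANTCA, bound by FOS and JUN proteins, was found on either strand in the central 300 bases of 3 of 57 H3K27ac peaks (5.26%; 5.03% of the list) and 1 of 36 H3K4me3 peaks (2.78%; 3.74% of the list). None of the 10 canonical promoters held it, compared with 5.40% of all canonical promoters.

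A list of 23 further ERK response and feedback genes, including paralogs of the 10, was examined in the same way. At the outer start, H3K27ac was present at 9 of 23 (23.6% of all protein-coding genes) and H3K4me3 at 12 of 23 (38.2%). Both marks were found at CCND1, DUSP1, DUSP16, FOSL1, PHLDA2 and SPRED3 (6 of 23, compared with 18.6% of all genes). These include a cyclin, an AP-1 subunit, phosphatases and relatives of PHLDA1 and the Spred genes. Neither mark was found at 8 of 23 (56.8% of all genes), namely CIC, DUSP2, DUSP9, DUSP10, EPHA4, ERF, SPRY1 and SPRY3. At the canonical start CIC had an H3K4me3 peak, so that H3K4me3 was present at 13 of 23 (41.2% of all genes) and neither mark at 7 of 23 (53.9%). At the outer start, the marks were shared within the Spred family but not within the Sprouty family. SPRED1, SPRED2 and SPRED3 carried both marks. Of the Sprouty genes, SPRY4 alone carried both, SPRY2 carried H3K27ac only, and SPRY1 and SPRY3 carried neither. For SPRY2 this rests on the limit of 1 kb, as its H3K4me3 peak lay 1.51 kb from the start. SPRY1 and SPRY3 had no peak in their windows, which cannot be told apart from too few reads. The shares over all protein-coding genes are those given for the 10 genes above.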

How the data were processed

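ChIP-seq peak lists of H3K27ac and H3K4me3 in H2087 cells were analysed, 1 library per mark. Per the labels and the study's methods, the authors aligned reads to hg19 with Bowtie 1.1.1 and called peaks with MACS2 2.1.0. The threshold and the use of the input in peak calling are not given in the sources used here. The deposited lists hold positions and a value without header, read from the numbers as the −log10 q of each summit assigned by the authors' peak caller. The lowest values listed were 1.30 for H3K27ac and 1.31 for H3K4me3. The value depends on depth and copy number and is not comparable between the lists. Distinct intervals (24096 from 25275 entries and 18585 from 20282) were taken as peaks with the highest value, and positions were made 1-based. Gene models were GENCODE 44 mapped to GRCh37 (hg19), and sequences came from that assembly. Overlap required at least 1 bp. Shares have exact Clopper-Pearson 95% intervals, and the upper limit of a count of 0 is 3 counts of the total. With 1 library per mark no test was made. All 10 genes are named, each with its nearest and highest peaks. Genes, lists and alternatives were chosen with earlier results of these data known. The counting of overlaps and the merging of peaks were checked on simulated intervals. The sequence of 1 peak is not reported here. Analyses used Python 3.11.15 with pandas 2.3.3 and scipy 1.17.1.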

Additional observations from a re-analysis of the deposited data

How the results depend on the processing

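Of 60 alternative values for 8 results, 49 stayed within a factor of 1.5 of the reported count or density, or within the 95% interval of the reported share, and 11 moved further. With only peaks at or above the list median, 26 H3K27ac and 18 H3K4me3 peaks were left and the median densities were 0.745 and 1.19 peaks per 100 kb, compared with 0.283 and 0.590 over all protein-coding genes. Merging peaks within 1 kb gave a median H3K4me3 density of 1.27 (all genes 0.901). With 3 kb in place of 1 kb, 8 of 10 genes had both marks at the outer start (24.3% of all genes). With windows of 10 kb there were 34 H3K27ac peaks and median densities of 6.25 and 4.81 (all genes 0 and 0.928). With windows of 100 kb there were 91 H3K27ac peaks with a median density of 2.22 (all genes 0.972). The median over the 10 genes was above that of all genes for both marks under each of these 4 settings of peaks and windows. The canonical start and the removal of multi-copy peaks were added after the data had been seen, and moved no result past these limits. No paired analysis was possible because only 1 library was made per mark. Depth is unknown, so missing peaks, as at DUSP4, are not evidence of missing marks. The window assigns peaks by distance, and 9 H3K27ac and 3 H3K4me3 peaks were nearer to the start of another protein-coding gene.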
